A study of Mus musculus with 4 samples.

Results

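The genes described here are the homeobox transcription factor families whose symbols begin with Hoxa, Hoxb, Hoxc, Hoxd, Nkx, Pax, Dlx, Msx, Irx, Lhx, Pitx, Meis or Pbx with a paralog number, together with Six2 and its paralogs. They were chosen by symbol alone from the gene column of the count files, which gave 101 genes out of 23282 rows. Another 11 rows with matching names that end in os, os and a digit, or as are antisense transcripts and were left out, and none of them exceeded 26 counts in a library. RNA was sequenced from bulk mammary gland tumours of female FVB mice at 14 weeks of age, 2 samples labelled Nr1d1+/+;PyMT and 2 labelled Nr1d1-/-;PyMT. Nr1d1 encodes REV-ERBα, a heme-binding nuclear receptor that represses transcription as part of the circadian clock, and PyMT, the polyoma virus middle T antigen, is an oncogene carried by all 4 tumours, so that no group without it was compared. The labels give neither the promoter that drives PyMT, nor the exons missing from the Nr1d1 null allele, nor whether the 2 samples of a genotype came from separate mice, so p-values measure the spread between these samples only.

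A homeobox encodes the homeodomain, a helix-turn-helix fold that binds short AT-rich DNA sites. Hox genes lie in clusters in which the order along the chromosome follows the order of expression along the body axis, and Meis and Pbx proteins of the TALE class bind DNA together with Hox proteins. Nkx2-1, also known as TTF-1, directs development of lung, thyroid and ventral forebrain, while Six2 and its paralogs and the Pax, Lhx, Dlx and Msx proteins pattern the eye, nervous system, skeleton, muscle and limbs. Hox9 and Msx genes have known roles in mammary gland development.

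Libraries held 15905404 to 19116279 counts over genes. Levels are CPM, counts relative to library size, scaled with trimmed mean of M-values (TMM) factors of 0.859 to 1.18, and 1 count was worth 0.0473 to 0.0733 CPM. Log2 folds are libraries labelled Nr1d1-/- over libraries labelled Nr1d1+/+ with their standard error (SE), and a gene was called at an adjusted p under 0.05 over all 14801 genes tested by edgeR. Nr1d1 itself stood at 20.1 and 10.3 CPM in Nr1d1+/+ replicates 1 and 2 and at 10.6 and 12.8 CPM in Nr1d1-/- replicates 1 and 2 (adjusted p = 0.436), and since whole-gene counts include any exons that remain, they do not check the genotype labels. The luminal keratins Krt8 and Krt18 were abundant in every library, at 1269 CPM or more. Nr1d1-/- replicate 1 stood apart in 19 skeletal muscle markers, which summed to 911.5 CPM there and to 6.25, 6.27 and 12.9 CPM in Nr1d1+/+ replicate 1, Nr1d1+/+ replicate 2 and Nr1d1-/- replicate 2, with Myod1, Myog and Myf6 at 0 in all 4. In bulk samples, fewer cells of a type and less RNA per cell cannot be told apart.

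Homeobox genes were more often higher than lower in the libraries labelled Nr1d1-/-. Of the 101 genes, 39 had enough counts to be tested, and of these 17 were higher, 1 was lower and 21 did not pass. Among all tested genes 16.5% were called higher and 17.3% lower. The homeobox genes had a median log2 fold of 1.12, against −0.01 over all tested genes. Since a gene could enter the test through either genotype, 2 of the 39 had reached the filter of 0.559 CPM in no Nr1d1+/+ library, Hoxb3 and Nkx1-2, and of the other 37 there were 16 called higher and 1 lower. The plot of levels by library shows the called genes from Hoxb3, at 0.0946 CPM in its lowest library, to Nkx2-1, at 1532 CPM in its highest.

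**Figure D1:**
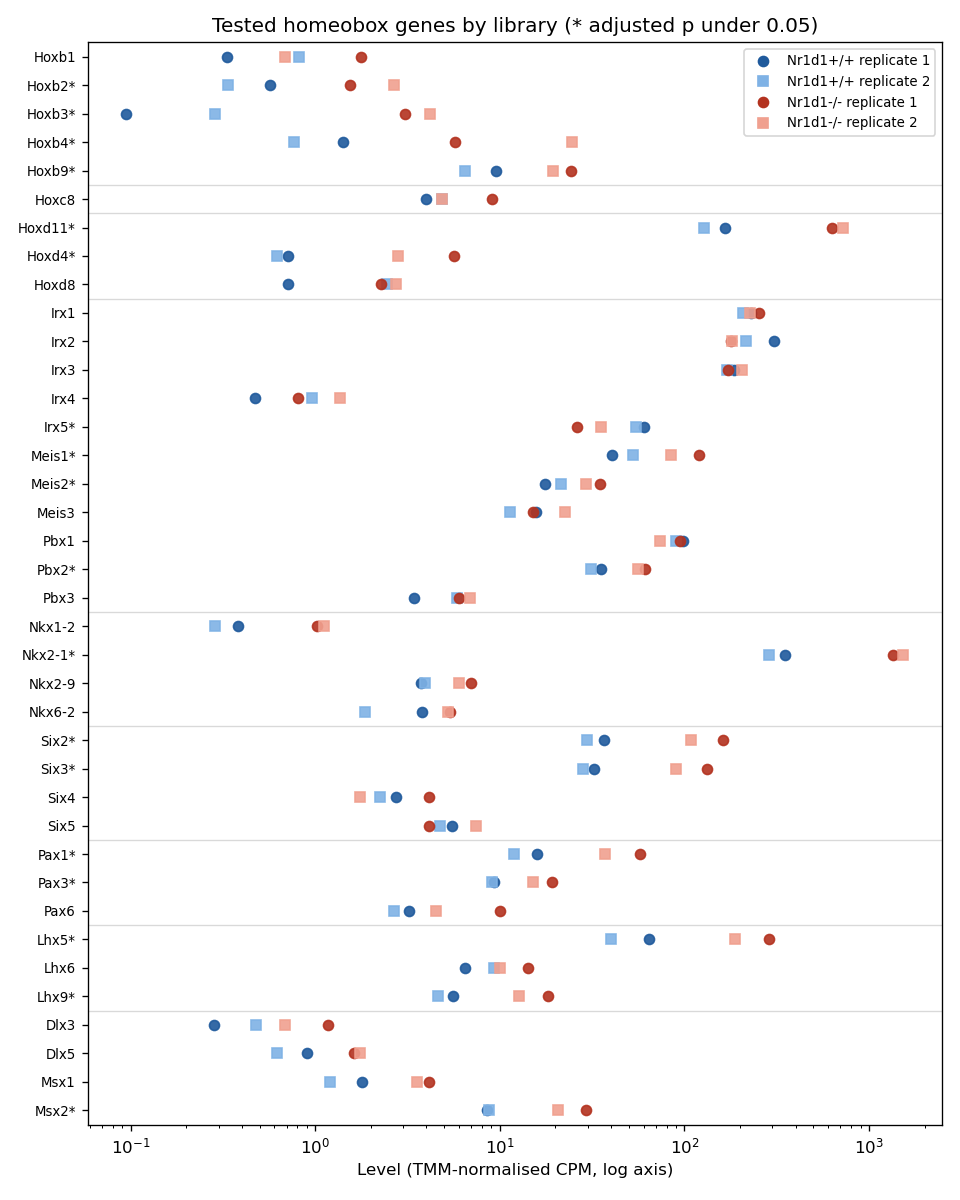
Level of tested homeobox genes in each of the 4 libraries, in TMM-normalised CPM on a log axis, grouped by family; circles are replicate 1, squares replicate 2, blue Nr1d1+/+ and red Nr1d1-/-, and an asterisk marks genes called by edgeR. Nkx2-1 lies at 349 and 287 CPM in Nr1d1+/+ and at 1351 and 1532 CPM in Nr1d1-/-, the highest levels of any gene plotted, and Irx5 is the only called gene whose red points lie to the left.

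The count of higher genes was read against scaling and against gene composition. The tested homeobox genes had a median GC content of 54.7% and a median transcript length of 2689 bases, against 49.7% and 3281 bases over all tested genes. With the trends of fold against GC content and length removed, 17 homeobox genes were higher and 2 lower, where 12.1% and 11.3% of all 14650 genes fitted were called, and 16 of the 17 were shared with the first fit. The median was then 0.97 for the homeobox genes and −0.03 for all. With scaling by library size only, the median of all genes moved from −0.01 to −0.38 and that of the homeobox genes to 0.73, and 13 were higher and 3 lower, beside 8.65% and 29.8% of all genes. Leaving out Nr1d1-/- replicate 1, the library with muscle transcripts, left 15 of 41 tested higher, beside 12% of all genes. Without Nr1d1+/+ replicate 2 there were 10 of 48 higher beside 6.75% of all genes, and without Nr1d1-/- replicate 2 there were 21 of 46 beside 15.3%. Nkx2-1, Hoxd11, Hoxb4, Lhx5, Six2, Six3, Pax1, Meis1 and Msx2 stayed called in every alternative fit and without each library in turn. Hoxb3 did so too, but it reached the filter in no Nr1d1+/+ library, so it entered only through the group where it was higher.

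Nkx2-1 was the most abundant gene of the set, with a mean over libraries of 309.6 CPM per kb of exon, and it rose 4.54-fold. Its gene model spans chr12:56531958-56536908 (GRCm38, minus strand) and overlaps Gm26973 on the opposite strand, which is not among the counted rows. Since the strand setting of counting is not given, reads of Gm26973 could be counted as Nkx2-1. The same limit holds for the called genes Hoxb2, Hoxb3, Lhx5, Six3 and Meis1, which overlap opposite-strand genes outside the counted rows. Nkx2-1 held 7369 and 5997 counts in Nr1d1+/+ replicates 1 and 2 and 18435 and 24686 counts in Nr1d1-/- replicates 1 and 2, which ranked it 305th, 359th, 127th and 103rd of the 23282 rows. Both Nr1d1-/- libraries lay well above both Nr1d1+/+ libraries, at 1351 and 1532 against 349 and 287 CPM, with a log2 fold of 2.18 (SE 0.20, adjusted p = 0.00118). It remained called under every alternative fit and without any one library, with a log2 fold of 1.91 (adjusted p = 0.00172) once GC and length trends were removed. Its neighbour Nkx2-9, 74.5 kb away, stood at 3.74 and 3.93 CPM in Nr1d1+/+ and at 6.96 and 6.02 CPM in Nr1d1-/-, and its log2 fold of 0.76 did not pass (adjusted p = 0.13) and was −0.02 with the trends removed.

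Markers of lung and thyroid, the tissues Nkx2-1 is best known for, were read in the same libraries. Of 16 lung epithelium markers, 8 were tested, 1 was called higher and 0 lower by edgeR (1 at an unadjusted p under 0.05, and 0 called by DESeq2 or limma-voom), and the sum of all 16 was 162.5 and 160.8 CPM in Nr1d1+/+ and 146.5 and 108.4 CPM in Nr1d1-/- libraries. Most of that sum came from Abca3 and Slc34a2. Calls among all tested genes were 16.5% higher and 17.3% lower. The surfactant gene Sftpc held 6, 8, 0 and 6 counts, Sftpa1 held 0, 0, 0 and 2, and Scgb3a2 held none, in the order Nr1d1+/+ replicates 1 and 2, then Nr1d1-/- replicates 1 and 2. The 10 thyroid markers summed to 3.97, 5.41, 2.64 and 2.17 CPM in that order, with thyroglobulin (Tg), Foxe1, Iyd and Dio1 at 0 throughout. The part of either tissue in the level of Nkx2-1 was not tested.

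Hoxd11, a posterior Hox gene of limb and kidney development, moved alongside Nkx2-1. Its level was 166 and 127 CPM in Nr1d1+/+ and 628 and 720.3 CPM in Nr1d1-/- libraries, a log2 fold of 2.20 (SE 0.20, adjusted p = 0.00118) that was 2.54 with the trends removed. The groups did not overlap, and the gene was called in every alternative fit. The ratio of Nkx2-1 to Hoxd11 CPM was 2.1, 2.26, 2.15 and 2.13 in the 4 libraries, in the same order, whereas the ratio of Nkx2-1 to Lhx5 ran from 4.68 to 8.1. How often genes of similar fold hold so steady a ratio was not tested. Hoxd11 alone made up 86.5% to 91.4% of the summed CPM of all 39 Hox genes. It spans chr2:74679557-74687016 (plus strand) and overlaps Gm28309 on the same strand, which is not among the counted rows. Reads of Gm28309 could therefore be counted as Hoxd11. The genes on either side of Hoxd11 gave few or no counts: Hoxd10 and Hoxd12 held 0 counts in all 4 libraries, and Hoxd13 held 0, 1, 2 and 4. A count of 0 allows up to 0.142 to 0.22 CPM here (3 counts per library, counting error only).

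Promoter sequences are printed for Nkx2-1, Hoxd11 and Hoxb4, called genes that hold letters of the motifs marked below. Windows of Hoxd4, Msx2, Hoxd8 and Nkx1-2 also hold such letters and are not printed. Of these, Hoxd8 and Nkx1-2 were not called. They are the 250 bases before a RefSeq start (GRCm38.p6), 5′ to 3′ on the gene's strand. Capitals mark AGGTCA or its reverse complement TGACCT, a half-site bound by REV-ERB and ROR receptors, the E-box CACGTG, and TAATTA, a pair of homeodomain cores. Only these letters were searched, without flanking bases, and binding was not tested.
Nkx2-1, chr12:56536909-56537158, minus strand: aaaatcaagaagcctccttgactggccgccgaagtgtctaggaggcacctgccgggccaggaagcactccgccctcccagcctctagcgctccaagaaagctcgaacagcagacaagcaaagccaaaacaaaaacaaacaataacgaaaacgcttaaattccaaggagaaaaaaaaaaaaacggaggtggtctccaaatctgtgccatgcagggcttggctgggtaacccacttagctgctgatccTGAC
Nkx2-1 site across the start, chr12:56536895-56536924, minus strand: agctgctgatccTGACCTggtaacagcaat
Hoxd11, chr2:74679308-74679557, plus strand: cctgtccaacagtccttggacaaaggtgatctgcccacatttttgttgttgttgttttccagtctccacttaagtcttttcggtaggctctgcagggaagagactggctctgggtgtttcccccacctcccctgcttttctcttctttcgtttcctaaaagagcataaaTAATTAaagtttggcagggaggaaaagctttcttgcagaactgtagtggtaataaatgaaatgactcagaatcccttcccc
Hoxd11, chr2:74682073-74682322, plus strand: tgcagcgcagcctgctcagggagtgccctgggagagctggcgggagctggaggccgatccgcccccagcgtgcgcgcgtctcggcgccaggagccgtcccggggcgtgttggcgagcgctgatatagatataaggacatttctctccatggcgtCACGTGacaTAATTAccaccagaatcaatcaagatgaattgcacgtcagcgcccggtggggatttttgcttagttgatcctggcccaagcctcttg
Hoxb4, chr11:96318017-96318266, plus strand: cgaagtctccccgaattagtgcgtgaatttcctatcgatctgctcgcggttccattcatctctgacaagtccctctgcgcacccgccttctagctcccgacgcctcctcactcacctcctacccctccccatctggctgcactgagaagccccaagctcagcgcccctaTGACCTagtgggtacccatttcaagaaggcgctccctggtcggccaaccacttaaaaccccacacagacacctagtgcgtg
The half-site of Nkx2-1 straddles the start, so the first line ends inside it and the second shows it whole. The 2 Hoxd11 windows precede 2 annotated starts, and the second lies inside an intron of the longer transcript.

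Across windows that also take in the 50 bases after the start (300 bases, both strands searched), the half-site was present in 3 of 13 windows of the genes called higher, those of Nkx2-1, Hoxb4 and Hoxd4. That is 23.1%, beside 16.3% of all 32851 windows in the table and 11.8% of the 76 windows of homeobox genes. The E-box was in 2 of the 13 (Hoxd11 and Hoxd4), or 15.4% beside 7.15% of all windows and 11.8% of the homeobox windows. TAATTA was in 3 of the 13 (both Hoxd11 windows and Msx2), or 23.1% beside 5.29% of all windows and 3.95% of the homeobox windows. CACGTG and TAATTA read the same on both strands, and none of the 3 motifs contains another. The table held a window for 66 of the 101 genes and for 12 of the 17 called higher, and its windows had a median GC content of 60.2% for homeobox genes against 52.7% for all. These matches are descriptions of letters in the windows.

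Hox genes other than Hoxd11 were scarce, at 19.6 and 19.7 CPM in sum in Nr1d1+/+ and 61.6 and 68.0 CPM in Nr1d1-/- libraries. Of the 39 Hox genes, 9 were tested, 6 were higher, 0 were lower and 3 did not pass, and by edgeR, DESeq2 and limma-voom alike 0 were lower at an unadjusted p under 0.05. The tested Hox genes were 5 of 10 in the Hoxb cluster, 3 of 9 in Hoxd, 1 of 9 in Hoxc and 0 of 11 in Hoxa. By paralog group, 4 of the 5 tested anterior genes (groups 1 to 4) and 2 of the 4 tested genes of groups 5 to 13 were higher. Among all tested genes 16.5% were called higher and 17.3% lower. These Hox counts are too small to compare the groups. Of the anterior genes called, Hoxb3 reached the filter in no Nr1d1+/+ library, and the calls of Hoxb2 and Hoxd4 were lost in some fits, as given below. The heat maps of the clusters show Hoxd11 standing alone among posterior genes and a run of Hoxb genes that was brighter in Nr1d1-/-.

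**Figure D2:**
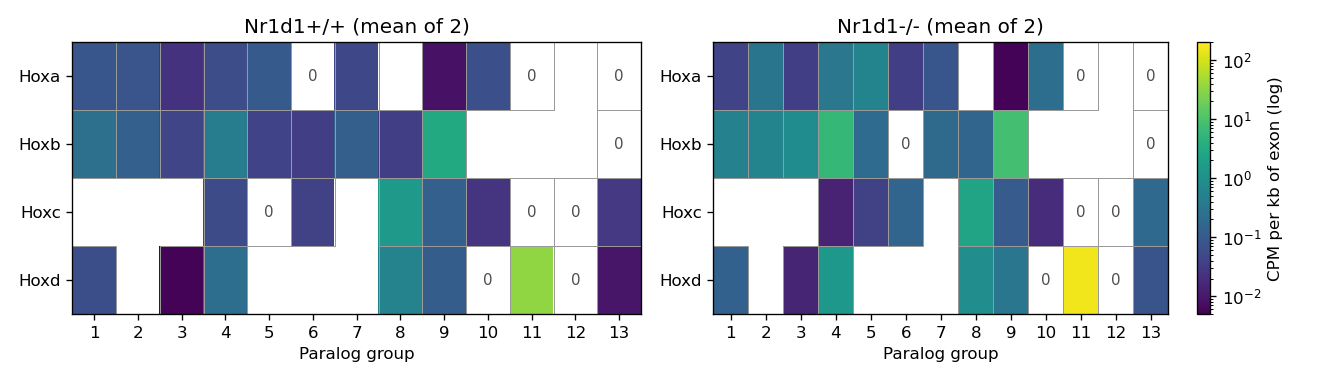
Mean level of each Hox gene in the 2 Nr1d1+/+ libraries (left) and the 2 Nr1d1-/- libraries (right), in CPM per kb of exon on a log colour scale, by cluster and paralog group; 0 marks a gene with no counts and blank squares are paralogs absent from the count files. Hoxd11 rises from 34.8 to 160.0 CPM per kb, and Hoxb4 from 0.426 to 5.88 CPM per kb.

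In the Hoxb cluster on chromosome 11, Hoxb9, Hoxb4, Hoxb3 and Hoxb2 were higher, and Hoxb1 did not pass. Hoxb9, which acts with its paralogs in the developing mammary gland, stood at 9.51 and 6.46 CPM in Nr1d1+/+ and at 24.2 and 19.4 CPM in Nr1d1-/-, a log2 fold of 1.44 (SE 0.29, adjusted p = 0.00778). Without Nr1d1+/+ replicate 2 its adjusted p was 0.0582. Hoxb4, known for its part in blood stem cell expansion, was at 1.42 and 0.766 CPM in Nr1d1+/+ and at 5.72 and 24.4 CPM in Nr1d1-/-. The groups did not overlap, but the 2 Nr1d1-/- libraries lay far apart, and the log2 fold of 3.79 (SE 0.72, adjusted p = 0.00586) was 4.47 without Nr1d1-/- replicate 1 and 2.36 without Nr1d1-/- replicate 2. Hoxb3 held 2 and 6 counts in Nr1d1+/+ and 42 and 67 counts in Nr1d1-/- libraries, or 0.0946, 0.287, 3.08 and 4.16 CPM. Its log2 fold of 4.21 (SE 0.70, adjusted p = 0.00363) was the highest of the set, and it was 3.59 without Nr1d1+/+ replicate 1 and 5.14 without Nr1d1+/+ replicate 2. Hoxb3 reached the count filter only through the Nr1d1-/- libraries, where it was higher. Hoxb2, a hindbrain patterning gene, stood at 0.568 and 0.335 CPM in Nr1d1+/+ and 1.54 and 2.67 CPM in Nr1d1-/-, with a log2 fold of 2.22 (SE 0.67, adjusted p = 0.0329). That call was lost with the trends removed (adjusted p = 0.0502), with library size only (0.0576), with no count filter (0.0589), in DESeq2 (0.0531) and in limma-voom (0.0551), and when Nr1d1+/+ replicate 1 (0.135), Nr1d1+/+ replicate 2 (0.246) or Nr1d1-/- replicate 2 (0.124) was left out. Hoxb1 was at 0.331 and 0.814 CPM in Nr1d1+/+ and 1.76 and 0.683 CPM in Nr1d1-/-, so the groups overlapped (log2 fold 1.05, adjusted p = 0.331).

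Elsewhere in the clusters the levels were low. Hoxd4 was at 0.71 and 0.622 CPM in Nr1d1+/+ and 5.64 and 2.79 CPM in Nr1d1-/-, with a log2 fold of 2.63 (SE 0.59, adjusted p = 0.0112). Its adjusted p was 0.0532 without Nr1d1+/+ replicate 1 and 0.0738 without Nr1d1+/+ replicate 2, and it overlaps Hoxd3 on the same strand, which held at most 2 counts, so reads of the pair could be split. Hoxd8 spanned 0.71 and 2.44 CPM in Nr1d1+/+ and 2.27 and 2.73 CPM in Nr1d1-/- and did not pass (adjusted p = 0.424). Hoxc8, a gene of the mid trunk, was at 3.97 and 4.84 CPM in Nr1d1+/+ and at 9.09 and 4.84 CPM in Nr1d1-/-, where only replicate 1 stood clear of the Nr1d1+/+ pair (adjusted p = 0.246). The Hoxa cluster as a whole summed to 1.04, 1.29, 4.62 and 2.48 CPM, and Hoxa5 (5, 3, 26 and 5 counts) and Hoxa10 (8, 1, 19 and 2 counts) were its most counted genes.

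Among the 8 Lhx genes, which encode LIM-homeodomain proteins, Lhx5 and Lhx9 were higher and Lhx6 did not pass. Lhx5, a forebrain gene on chromosome 5, stood at 63.9 and 39.8 CPM in Nr1d1+/+ and at 289 and 189 CPM in Nr1d1-/-, a log2 fold of 2.20 (SE 0.28, adjusted p = 0.00223). Lhx9, active in gonad and limb, was lower in level, at 5.58 and 4.6 CPM against 18.3 and 12.7 CPM (log2 fold 1.60, SE 0.32, adjusted p = 0.00751, and 0.0502 without Nr1d1+/+ replicate 2). Lhx6, a gene of cortical interneurons and teeth, was at 6.43 and 9.34 CPM in Nr1d1+/+ and 14.2 and 10.1 CPM in Nr1d1-/-, and its log2 fold of 0.62 did not pass (adjusted p = 0.179). The other 5 Lhx genes were not tested.

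Six2 and Six3 are neighbours on chromosome 17, 55.0 kb apart, and they moved together. Six3, which specifies the anterior brain and eye, was at 32.4 and 28.1 CPM in Nr1d1+/+ and 131.7 and 89.8 CPM in Nr1d1-/- (log2 fold 1.87, SE 0.23, adjusted p = 0.00211). Six2, which maintains kidney progenitors, was at 36.4 and 29.6 CPM in Nr1d1+/+ and 162.7 and 109.2 CPM in Nr1d1-/- (log2 fold 2.04, SE 0.24, adjusted p = 0.00201), and its fold was 1.44 with the trends removed. The ratio of Six2 to Six3 CPM was 1.13, 1.06, 1.24 and 1.22, and both genes were highest in Nr1d1-/- replicate 1. The other 3 tested paralogs did not pass. Among these, Six5 was at 5.49 and 4.74 CPM in Nr1d1+/+ and 4.1 and 7.45 CPM in Nr1d1-/- (adjusted p = 0.739).

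Among Pax genes, Pax1 and Pax3 were higher and Pax6 did not pass, and the other 6 of the 9 were not tested. Pax1, a sclerotome gene whose protein has a paired domain and no homeodomain, was at 15.8 and 11.9 CPM in Nr1d1+/+ and 57.1 and 37.1 CPM in Nr1d1-/- (log2 fold 1.76, SE 0.28, adjusted p = 0.00335). Pax3, a gene of neural crest and muscle progenitors, was at 9.32 and 9.1 CPM in Nr1d1+/+ and 19.2 and 15.0 CPM in Nr1d1-/- (log2 fold 0.89, SE 0.27, adjusted p = 0.0345). That call was lost with library size only (adjusted p = 0.179) and with no count filter (0.0514), and it was lost when Nr1d1+/+ replicate 1 (0.145), Nr1d1+/+ replicate 2 (0.167) or Nr1d1-/- replicate 1 (0.132) was left out. Nr1d1-/- replicate 1 is the library with muscle transcripts, and Pax3 had a log2 fold of 0.70 without it; their part in the level of Pax3 was not tested. Pax6, the eye and pancreas regulator, was at 3.22 and 2.68 CPM in Nr1d1+/+ and 9.97 and 4.53 CPM in Nr1d1-/-, with a log2 fold of 1.28 (adjusted p = 0.0596) that passed with the trends removed (1.53, adjusted p = 0.0407). It was 0.62 (adjusted p = 0.357) without Nr1d1-/- replicate 1, 1.74 (0.013) without Nr1d1-/- replicate 2 and 0.90 (0.146) with library size only.

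Markers of neurons and endocrine cells were read beside Lhx5, Six3 and Pax6. The 18 neuron markers summed to 68.5 and 63.7 CPM in Nr1d1+/+ and 78.8 and 63.0 CPM in Nr1d1-/- libraries. Of the 7 tested, 2 were higher and 2 lower, beside 16.5% and 17.3% of all tested genes. The 11 pancreatic and enteroendocrine markers summed to 0.899, 1.05, 8.06 and 3.47 CPM, and none was tested. Their part in the levels of Lhx5, Six3 or Pax6 was not tested.

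Msx and Dlx genes, which act downstream of BMP signals in skin appendages, teeth and limbs, gave 1 call among 4 tested. Msx2, also a gene of the mammary bud, was at 8.56 and 8.71 CPM in Nr1d1+/+ and 29.2 and 20.7 CPM in Nr1d1-/- (log2 fold 1.53, SE 0.27, adjusted p = 0.00489). Its paralog Msx1 was at 1.8 and 1.2 CPM in Nr1d1+/+ and 4.1 and 3.54 CPM in Nr1d1-/-, a log2 fold of 1.34 that did not pass (adjusted p = 0.0536), passed with upper-quartile scaling (0.0453) and was 0.83 (0.217) with the trends removed. Dlx5 was at 0.899 and 0.622 CPM in Nr1d1+/+ and 1.61 and 1.74 CPM in Nr1d1-/- (log2 fold 1.13, adjusted p = 0.172).

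Genes of the TALE class, Meis, Pbx and Irx together, stood at 995.4 and 863.9 CPM in Nr1d1+/+ and at 963.4 and 923.4 CPM in Nr1d1-/- libraries, with 11 of 13 tested, 3 higher, 1 lower and 7 not passing. The Hox partners Meis1 and Meis2 were higher: Meis1 was at 40.7 and 52.9 CPM in Nr1d1+/+ and 119.5 and 84.1 CPM in Nr1d1-/- (log2 fold 1.12, SE 0.23, adjusted p = 0.00814). Meis2 was at 17.6 and 21.6 CPM in Nr1d1+/+ and 34.97 and 29.1 CPM in Nr1d1-/- (log2 fold 0.71, SE 0.23, adjusted p = 0.0428). The Meis2 call was lost with library size only (adjusted p = 0.317), with no count filter (0.0693) and when Nr1d1+/+ replicate 1 (0.264), Nr1d1+/+ replicate 2 (0.103) or Nr1d1-/- replicate 1 (0.148) was left out. Pbx2, a broadly expressed cofactor, was at 35.2 and 31.1 CPM in Nr1d1+/+ and 61.4 and 56.3 CPM in Nr1d1-/- (log2 fold 0.83, SE 0.19, adjusted p = 0.013). It overlaps Gpsm3 on the same strand, so its value is uncertain where the authors' counting could split reads, and it was not called with library size only (adjusted p = 0.0995) or without Nr1d1+/+ replicate 2 (0.103).

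Irx1, Irx2 and Irx3 followed Nkx2-1 and Hoxd11 in mean CPM per kb of exon, at 87.8, 67.2 and 66.4 in turn. Irx proteins pattern the heart, limbs and nervous system. Irx5 was at 60.6 and 54.9 CPM in Nr1d1+/+ and 26.2 and 35.3 CPM in Nr1d1-/-, and it fell by 0.91 on the log2 scale (SE 0.22, adjusted p = 0.014), or by 1.64 (adjusted p = 0.00235) with the trends removed. Its GC content of 65.4% was the highest of the tested genes. Its adjusted p was 0.0554 when Nr1d1+/+ replicate 1 was left out and 0.0527 when Nr1d1-/- replicate 1 was. Irx2 was at 307 and 217 CPM in Nr1d1+/+ and 178 and 180.1 CPM in Nr1d1-/-, with separate groups and a log2 fold of −0.55 (adjusted p = 0.0661) that passed with the trends removed (−0.84, adjusted p = 0.0167). Irx1 was at 231 and 208 CPM in Nr1d1+/+ and 253 and 227 CPM in Nr1d1-/-, so the groups overlapped, and its log2 fold of 0.13 (adjusted p = 0.588) turned to −0.25 with library size only and −0.44 with the trends removed. Irx3, named here after its values were seen, was at 185 and 169.9 CPM in Nr1d1+/+ and 173 and 206 CPM in Nr1d1-/- (log2 fold 0.10, adjusted p = 0.704), and likewise turned negative in those fits. The plot of folds sets these genes at the bottom of the range.

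**Figure D3:**
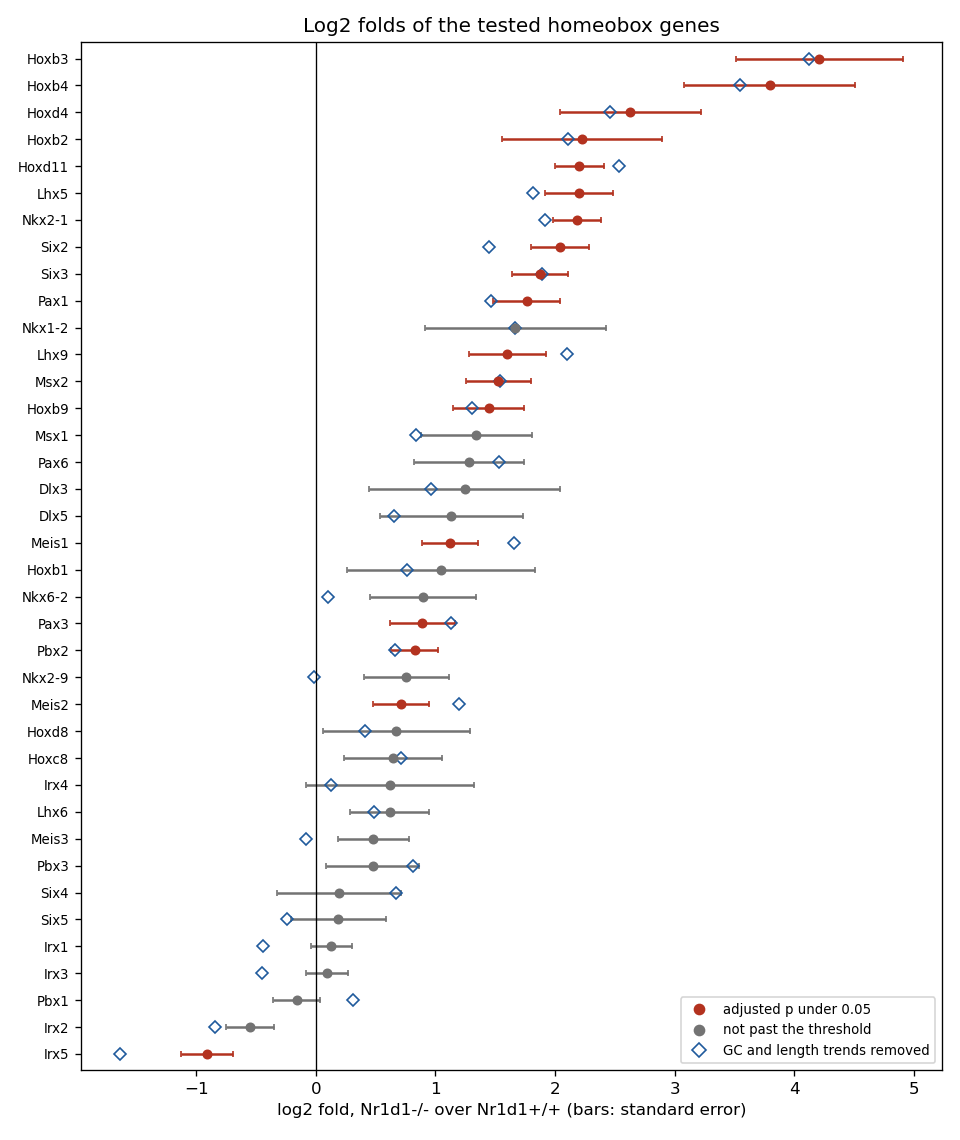
Log2 folds of tested homeobox genes, libraries labelled Nr1d1-/- over Nr1d1+/+, with bars of 1 SE; red marks genes called by edgeR, grey those that did not pass, and open diamonds the fold with GC and length trends removed. Hoxb3 and Hoxb4 have the highest folds, 4.21 and 3.79, with wide bars, and Irx5 lies lowest at −0.91; the diamonds of Irx1 and Irx3 lie on the other side of 0 from their points.

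The remaining 62 genes lay under the count filter. Of these, 16 had no count in any library and 54 were under 10 counts in every library, and together the untested genes summed to 4.54 and 5.79 CPM in Nr1d1+/+ and 15.0 and 10.2 CPM in Nr1d1-/-. The 8 with 10 or more counts in some library were Nkx2-3 (1, 1, 31 and 8 counts), Hoxa5 and Hoxa10 given above, Pitx1 (3, 2, 17 and 5), Hoxd9 (3, 7, 15 and 4), Hoxb5 (2, 3, 5 and 12), Hoxa4 (0, 4, 10 and 5) and Irx6 (7, 8, 9 and 10). No Pitx gene was tested. Nkx6-2, the remaining Nkx gene of note by level, was at 3.79 and 1.87 CPM in Nr1d1+/+ and 5.35 and 5.21 CPM in Nr1d1-/-. It did not pass (log2 fold 0.90, adjusted p = 0.148), with a log2 fold of 0.10 (adjusted p = 0.882) once the trends were removed. Nkx6-2 overlaps Inpp5a on the opposite strand, which held 685 to 1093 counts, so reads of Inpp5a could be counted as Nkx6-2.

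Homeobox genes outside these families were mixed. Of 56 tested, 16 were higher, 6 lower and 34 did not pass, with a median log2 fold of 0.48. With the trends removed 12 were higher and 4 lower. Over all genes the shares were 16.5% higher and 17.3% lower, or 12.1% and 11.3% with the trends removed. Prrx1, a gene of limb and facial mesenchyme, rose from 34.8 and 31.0 CPM in Nr1d1+/+ to 134.7 and 95.3 CPM in Nr1d1-/- (log2 fold 1.80). Otx1 (2.24) and Pou3f2 (1.37) were also higher, and Zhx1 (−1.77), Adnp (−1.45), Tgif1 (−1.21) and Zfhx2 (−1.14) were lower. Of the proteins that partner homeodomains, 3 of 23 tested genes were higher and 6 lower, and with the trends removed 1 was higher and 3 lower. These counts are not far from the shares of all genes, and no shift of the list is read from them. Eya2, a cofactor of Six2 and its paralogs, was lower, at 108.7 and 106.6 against 65.1 and 65.7 CPM, as were the corepressors Tle3 and Tle4 and the acetyltransferase Ep300 (log2 fold −1.83), while the short Groucho protein gene Aes was higher (1.48).

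Regulators known to hold Hox clusters silent or active were more often lower, and their part in the homeobox levels was not tested. Of 31 Polycomb genes tested, 15 were lower, 1 was higher and 15 did not pass, with a median log2 fold of −0.91. Among all tested genes 17.3% were lower and 16.5% higher. With the trends removed 9 Polycomb genes were lower and 2 higher, beside 11.3% and 12.1% of all genes fitted. Suz12, a core subunit of Polycomb repressive complex 2, was at 102.5 and 96.8 CPM in Nr1d1+/+ and 21.1 CPM in both Nr1d1-/- libraries (log2 fold −2.24, SE 0.19). Phc3, Ezh1 and Rybp were lower by 1.61, 1.65 and 1.54 on the log2 scale, and Cbx6 was higher by 1.52. The list of 23 Trithorax and H3K27 demethylase genes, called Trithorax genes below, also holds Aff4 and Mllt10, which belong to neither class. Of its 23 genes, 11 were lower and 3 higher (median −0.55), and with the trends removed 9 were lower and 2 higher. Ash1l (−1.47), Aff4 (−1.57), Mllt10 (−1.52) and Hcfc1 (−1.15) were among those lower, and Kmt2a, the founding methyltransferase of the group, was higher (0.87).

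Genes that carry and read retinoic acid, a known inducer of anterior Hox genes, were also read. Their part in the Hox levels was not tested. Of 16 tested, 7 were higher and 0 lower, with a median of 0.62, beside 16.5% higher and 17.3% lower among all tested genes. At an unadjusted p under 0.05, 1 was lower by edgeR, and DESeq2 called 1 lower and limma-voom 0. Rarb, a retinoic acid receptor and itself a retinoic acid target, was at 45.7 and 39.3 CPM in Nr1d1+/+ and 200.5 and 130.6 CPM in Nr1d1-/- (log2 fold 1.96, SE 0.24). Rxrg (1.85) and Crabp1 (2.48) were also higher. With the trends removed 4 were higher and 0 lower, with a median of 0.38, beside 12.1% and 11.3% of all genes fitted. Fewer of all tested genes were called when any 1 library was left out. The list counts that follow are therefore not read as changes particular to the lists. The counts of these lists moved with 1 library: without Nr1d1+/+ replicate 2 there were 8 Polycomb genes lower, 6 Trithorax genes lower and 1 higher, 3 retinoic acid genes higher and 1 lower, 5 of the other homeobox genes higher and 3 lower, and 1 partner lower. Without Nr1d1+/+ replicate 1 there were 5 of the other homeobox genes and 4 retinoic acid genes higher, 0 Trithorax genes higher and 3 partners lower. Without Nr1d1-/- replicate 1 there were 7 of the other homeobox genes higher, and without Nr1d1-/- replicate 2 there were 3 of them lower and 2 Polycomb genes higher.

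**Figure D4:**
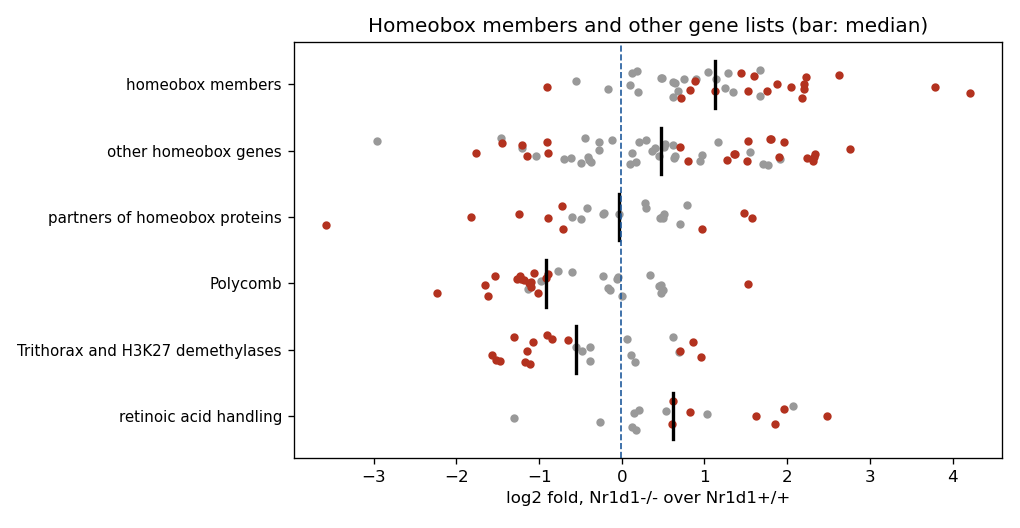
Log2 folds of the tested members of 6 gene lists, libraries labelled Nr1d1-/- over Nr1d1+/+; each point is a gene, red where called by edgeR, and the black bar is the list's median. The median is 1.12 for the homeobox genes, 0.48 for other homeobox genes, −0.91 for Polycomb and 0.62 for retinoic acid genes.

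Markers of other cell types were read beside the homeobox genes, since these are developmental regulators of many tissues. Shares called among all tested genes were 16.5% higher and 17.3% lower, or 12.1% and 11.3% with the trends removed. The 14 fibroblast markers summed to 886.5 and 1521 CPM in Nr1d1+/+ and 1314 and 1593 CPM in Nr1d1-/- libraries, with 2 higher and 12 not passing. Endothelial markers summed to 64.2, 76.4, 103.4 and 144.4 CPM, with 5 of 14 higher, and adipocyte markers to 44.9, 90.3, 224.1 and 136.1 CPM, with 4 of 10 tested higher, or 1 with the trends removed. Mammary basal markers summed to 292, 329, 423 and 573 CPM, with 6 of 12 higher and 2 lower, or 5 and 1 with the trends removed. Luminal markers summed to 7193, 6891, 10930 and 11600 CPM, with 4 of 14 tested higher and 3 lower, or 2 and 3 with the trends removed. B cell markers summed to 9.32, 7.13, 25.1 and 23.2 CPM, with 2 of 3 tested higher. Macrophage markers summed to 568.2, 637.3, 577.1 and 731.1 CPM, with 3 of 12 higher and 2 lower. T cell markers summed to 15.0, 16.5, 24.5 and 24.6 CPM, with 2 of 8 tested higher. Skin and hair follicle markers summed to 28.3, 42.7, 34.9 and 29.2 CPM, and none of 4 tested was called. The part of any cell type in the homeobox levels was not tested.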

How the data were processed

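Total RNA of 4 mammary tumours was sequenced after library construction with a strand-marking kit, per the labels; the submitters' processing notes name TopHat and mm10, and the sources read give neither the counting program, nor its strand setting, nor the annotation. The authors deposited whole-number counts per gene symbol for each library, not normalized. Counts were fitted as deposited in edgeR 4.0.16 (TMM factors, minimum count 10, quasi-likelihood F-test on genotype, 2 residual degrees of freedom, Benjamini-Hochberg adjustment over 14801 genes), in R 4.3.3, after a check on simulated counts. SE was the log2 fold over the square root of F. Symbols were joined to GENCODE gene models, 22230 directly, 669 through synonyms and 383 not at all; all 101 homeobox genes had a model. Alternatives were DESeq2 1.42.0 and its size factors, limma 3.58.1 (voom), upper-quartile or library-size scaling, no count filter, an older quasi-likelihood estimate, removal of GC and length trends (splines with 5 degrees of freedom), a replicate block, and leaving out each library. Named genes were Nkx2-1, every homeobox gene called, the 2 genes per family highest in CPM per kb among those not called, untested genes with 10 or more counts in a library, and up to 4 called genes per direction of each other list; a few genes the rule names are not reported here. Genes, lists and tests were chosen with earlier results of these data known. Promoter windows are RefSeq's, and 29 of 31 windows of tested genes matched a transcript on the stated strand.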

Additional observations from a re-analysis of the deposited data

How the results depend on the processing

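The number of homeobox genes higher ran from 10 to 21 when each library was left out, and was 13 to 19 under the other alternatives. The number lower was 3 with library size only, 2 with GC and length trends removed, 2 with the replicate block, 2 with the block and the trends removed together, and 0 to 2 when each library was left out. Irx2 joined Irx5 with the trends removed and with the block. Labels give the same replicate numbers to both genotypes without saying what they share, and deviations of same-numbered libraries correlated at 0.0256 over 14801 genes, so the numbers were not taken as pairs; the replicate block gave 18 homeobox genes higher and all 17 first called were among them. Signs reversed for genes that were not called. The log2 fold of Irx1 was −0.25 with library size only, −0.44 with the trends removed and −0.45 with the block added, and that of Irx3 was −0.28, −0.45 and −0.45. Six5 gave −0.18, −0.24 and −0.29 in those fits, and Nkx2-9 gave −0.0169 with the trends removed and −0.0175 with the block added. With each library left out, Hoxd8 ran from −0.0031 to 1.79, Irx3 from −0.0555 to 0.216 and Six5 from −0.33 to 0.54. The cause was not tested. Among all genes tested, calls were 1281 higher and 4410 lower with library size only, 1470 and 1811 without Nr1d1+/+ replicate 1, and 1036 and 1170 without Nr1d1+/+ replicate 2. With library size only, other homeobox genes gave 8 higher and 11 lower, retinoic acid genes 4 and 2, and Trithorax genes 0 higher; other homeobox genes gave 8 higher with no count filter. Where a library is left out, the lone library of its genotype is assumed to vary like the other pair. Among called genes, Hoxb2 and Hoxb3 had the lowest levels, with standard errors of 0.67 and 0.70 on the log2 scale, against 0.20 for Nkx2-1 and Hoxd11.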
